A study of Homo sapiens with 3 samples.

Results

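KYSE30 is a cultured human cell line from a squamous carcinoma of the esophagus, and the comparison described here sets a stable KYSE30 line with the first of 2 shRNAs against SNORD12B beside its control line. It uses 2 of the 3 libraries of the series, 1 a side, taken by their column names in the deposited count table. Both lines were grown in RPMI-1640 with 10% fetal bovine serum, exposed to virus for 24 hours and kept in 5 ug/mL blasticidin for 2 weeks, so vector and drug are common to both. The shRNA was carried by a pLKO.1-blast vector. The genotype label names the control a vector, whereas the treatment protocol speaks of a scrambled shRNA without a target, and the data cannot tell these apart. Total RNA was extracted with Trizol from each selected line, and each line is represented by 1 library. Of the 60554 genes in the table, 14570 were well counted, meaning 30 or more counts in at least 1 of the 2 libraries, and 11837 of these were protein-coding. Every difference below compares 2 libraries. Each is a size with its counting error and has no test against the spread between cultures.

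Box C/D small nucleolar RNAs are short RNAs, processed from the introns of host genes, that hold a C box near the 5′ end and a D box near the 3′ end. Proteins bind these boxes, and the resulting particle adds a methyl group to ribosomal RNA where the small RNA pairs with it. Ribosome assembly takes place in the nucleolus, draws on RNA polymerase I and many assembly factors, and scales with growth signals such as those passing through mTOR and MYC. The target and its 2 relatives in the same host gene, ZFAS1, are shown because the design rests on depleting the first of them. The sequences come from the GENCODE 29 transcripts and are given 5′ to 3′, with the C box motif TGATGA and the D box motif CTGA in capitals.
SNORD12B (91 nucleotides, plus strand, hg38 chr20:49280319-49280409): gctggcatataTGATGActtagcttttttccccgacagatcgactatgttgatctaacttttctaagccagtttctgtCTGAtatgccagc
SNORD12C (89 nucleotides, plus strand, hg38 chr20:49278940-49279028): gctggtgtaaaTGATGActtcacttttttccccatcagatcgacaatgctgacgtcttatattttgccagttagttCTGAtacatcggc
SNORD12 (90 nucleotides, plus strand, hg38 chr20:49280683-49280772): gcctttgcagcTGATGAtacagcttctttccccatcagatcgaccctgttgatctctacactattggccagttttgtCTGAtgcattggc
The longest run present in all 3 was 9 bases long, cagatcgac.

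SNORD12B was counted 7 times in the control and 15 times in the library labelled shRNA 1. Its ratio was 2.14, with an exact conditional interval at 95% of 0.823 to 6.21, so its direction is not settled at this depth. The counts lie opposite to the direction the label implies but are too few to tell whether SNORD12B was depleted. The name "the library labelled shRNA 1" is therefore used throughout. SNORD12C had 2 counts in each library and SNORD12 had 0 in each, which allows up to 0.196 CPM (a gene's count divided by the scaled library total, times 1000000). ZFAS1, the host RNA, had 186 and 216 counts, a ratio of 1.16 (0.950 to 1.42). ZNFX1, the neighbour on the minus strand, had 2927 and 2762, a ratio of 0.944 (0.896 to 0.994). The host and its neighbour thus lay close to the control.

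Total counts were 15473922 in the control and 15146805 in the library labelled shRNA 1, and 25058 and 24986 genes had a count. Mitochondrial genes took 4.60% and 3.94% of counts. Epithelial markers were abundant in both libraries. The squamous markers summed to 550.8 CPM in the control and 208.6 CPM in the library labelled shRNA 1. Of these 6 markers, 5 reached 1 CPM in both, while KRT5, a defining basal keratin, had 1 and 3 counts. Fibroblast markers summed to 16.1 and 9.41 CPM, nearly all of it COL1A1, with DCN, LUM and PDGFRA at 0 counts in both. Endothelial markers summed to 4.05 and 1.44 CPM, and blood markers to 1.96 and 1.18 CPM. PTPRC and PECAM1 were at 0 in both. The muscle and nerve markers summed to 21.1 and 13.9 CPM, mostly MYH11. In bulk RNA, fewer cells of a kind and less RNA per cell cannot be told apart.

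Most genes stood close to the control. Of the 14570 well-counted genes, 81.3% lay within 1.5-fold, the middle 50% had log2 ratios from -0.27 to 0.26, and the median was 0.00. Above the control lay 7305 genes, and below it 7265. At least 2-fold higher were 292 genes (2.00% of those well counted), and 591 were at least 2-fold lower (4.06%). At 4-fold the counts were 28 higher (0.192%) and 112 lower (0.769%), and at 16-fold 1 higher and 16 lower. The lower side was thus longer at each of these sizes. The counting interval lay wholly above 1 for 4106 genes (28.2%) and wholly below 1 for 4134 (28.4%). An interval that misses 1 is therefore common here and says only that the 2 libraries differ beyond counting. Genes past 2-fold in either direction were 6.06% between these 2 libraries. The same measure was 3.80% between the control and the library labelled shRNA 2, and 9.43% between the 2 shRNA libraries.

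Large ratios were more frequent among weakly counted genes. Below a mean of 5 CPM, 7.32% of 2513 genes were past 2-fold on the higher side and 12.5% on the lower side. Above 100 CPM, these shares were 0.176% and 0.881% of 2270 genes. Counting error alone is larger at low levels, and its part in this slope was not tested. When only the interval bound nearest to 1 was required to pass 2-fold, 54 higher and 217 lower genes remained. Long intergenic non-coding RNAs had 4.91% higher and 8.53% lower of 387 genes, against 1.65% and 3.94% of the protein-coding genes. The plot of ratio by level shows this spread.

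**Figure D1:**
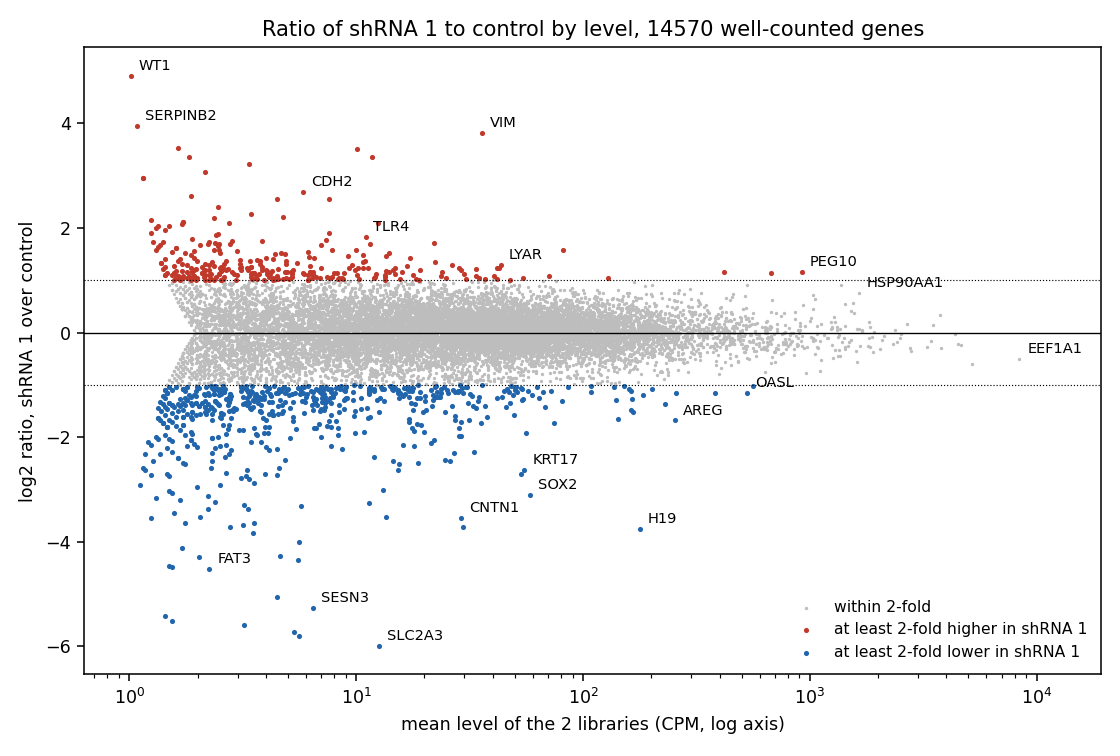
Each point is 1 of the 14570 well-counted genes, with the mean level of the 2 libraries (CPM, log axis) on the x axis and the log2 ratio of the library labelled shRNA 1 to the control on the y axis; dotted lines mark 2-fold. The 292 higher genes (red) reach a log2 ratio of 4.91 for WT1, the 591 lower genes (blue) reach -5.99 for SLC2A3, and the scatter narrows as the level grows.

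Of the 25 higher protein-coding genes chosen by their interval bound, VIM had the bound farthest from 1. VIM (ENSG00000026025.13, chr10:17228259-17237593), the intermediate filament protein vimentin, had 73 counts in the control and 1024 in the library labelled shRNA 1. That is 4.77 against 66.9 CPM, a ratio of 14.03 (11.06 to 18.04). VIM is overlapped by opposite-strand exons on 25.4% of its exonic bases. WT1 (chr11:32387775-32435630), a zinc finger transcription factor of kidney and mesothelium, had 1 count in the control and 30 counts in the other library, and the interval of its ratio runs from 4.99 to 1224. CDH2 (chr18:27950966-28177446), N-cadherin, stood at 1.57 and 10.1 CPM, a ratio of 6.46 (4.18 to 10.4). COL5A1, a fibrillar collagen chain, had 34 and 199 counts, a ratio of 5.85 (4.05 to 8.69). The fibroblast genes DCN, LUM and PDGFRA were at 0 in both libraries beside these values.

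Several of the same 25 genes act in signalling. DACT1, which modulates WNT signalling, had 5 and 51 counts, a ratio of 10.2 (4.10 to 32.8). BMPER, a secreted BMP-binding protein, had 7 and 59 counts, and the ligand BMP6 had 18 and 87, a ratio of 4.83 (2.89 to 8.54). GLI2, a transcription factor of the Hedgehog pathway, stood at 3.20 and 12.02 CPM, a ratio of 3.76 (2.73 to 5.26). DZIP1L, a protein of the ciliary transition zone, had 4 and 46 counts. The control counts of most of these genes were small, so their upper bounds are wide.

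The remaining genes of the 25 had varied roles. DPYSL3, a cytoskeletal protein of growing axons, stood at 10.3 CPM in the control and 33.6 CPM in the library labelled shRNA 1, a ratio of 3.28 (2.74 to 3.95). NAV3 stood at 5.42 and 17.6 CPM, and NPTX1, a secreted neuronal pentraxin, at 7.25 and 20.8 CPM. ANOS1, an extracellular protein of neuron migration, had 20 and 117 counts, a ratio of 5.85 (3.62 to 9.93). TLR4, the receptor for bacterial lipopolysaccharide, stood at 4.83 and 17.2 CPM, and MYBL1, a transcription factor of the MYB family, at 41.2 and 122.6 CPM. MYBL1 had the largest counts among the 25, namely 630 and 1877, and a ratio of 2.98 (2.72 to 3.27). SERPINB2, an inhibitor of plasminogen activators, had 2 and 31 counts, a ratio of 15.5 (3.94 to 133.7). APLN, the peptide ligand apelin, had 4 and 31 counts. The others were CSAG2, MYH15, MPP4, PRR16, ARMCX6, CCDC88A, PLEKHN1 and RTEL1-TNFRSF6B.

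On the lower side the ratios were larger. SLC2A3 (ENSG00000059804.15, chr12:7919230-7936275), the glucose transporter GLUT3, had 381 counts in the control and 6 in the library labelled shRNA 1, or 24.9 against 0.392 CPM. Its ratio was 0.0158 (0.00574 to 0.0346). SESN3, a stress-induced sestrin that restrains mTOR complex 1, had 193 and 5 counts, a ratio of 0.0259 (0.00832 to 0.0615). The kinase MARK1 had 159 and 3 counts, and VIT, a matrix protein, 168 and 3. TCIM, a regulator of WNT signalling, had 96 and 2. FAT3 (chr11:92352096-92896470), a giant protocadherin, had 69 counts in the control and 0 in the library labelled shRNA 1. It was 23-fold lower when that 0 was set to 3 counts. The upper bound of its counting interval was a ratio of 0.0549. CTNND2, the neural delta-catenin, had 52 and 0 counts and was 17.3-fold lower on the same setting, with an upper bound of 0.0735. These 2 were the only well-counted genes at 0 in 1 library, and no well-counted gene was at 0 in the control.

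Several lower genes were well expressed in the control. CNTN1 (chr12:40692442-41072418), the neural adhesion protein contactin-1, stood at 53.5 and 4.57 CPM, a ratio of 0.0855 (0.0660 to 0.109). SOX2 (chr3:181711924-181714436), the transcription factor of basal esophageal cells, stood at 104.4 and 12.1 CPM, a ratio of 0.116 (0.0988 to 0.135). TNFSF18, a ligand of the tumour necrosis factor family, stood at 92.6 and 14.1 CPM, and KRT17, a keratin of basal and stressed epithelium, at 94.9 and 15.4 CPM. Counts behind these 4 genes were between 70 and 1599, and their intervals are narrow. FGFR2, a receptor for fibroblast growth factors, had 159 and 16 counts. SMO, the signal transducer of the Hedgehog pathway, had 59 and 3 counts, a ratio of 0.0509 (0.0102 to 0.156). The potassium channel genes KCNJ2 and KCNV1 had 314 and 33 counts and 79 and 6 counts. GBP2, an interferon-induced GTPase, stood at 23.3 and 2.87 CPM, and IGFBP5, which binds insulin-like growth factors, at 6.53 and 0.457 CPM. The others were KLHL13, NREP, GGT6, FREM2, C1orf21, ZNF736, CERS4 and KRT23, with counts of 43 to 380 in the control and 1 to 33 in the library labelled shRNA 1.

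**Figure D2:**
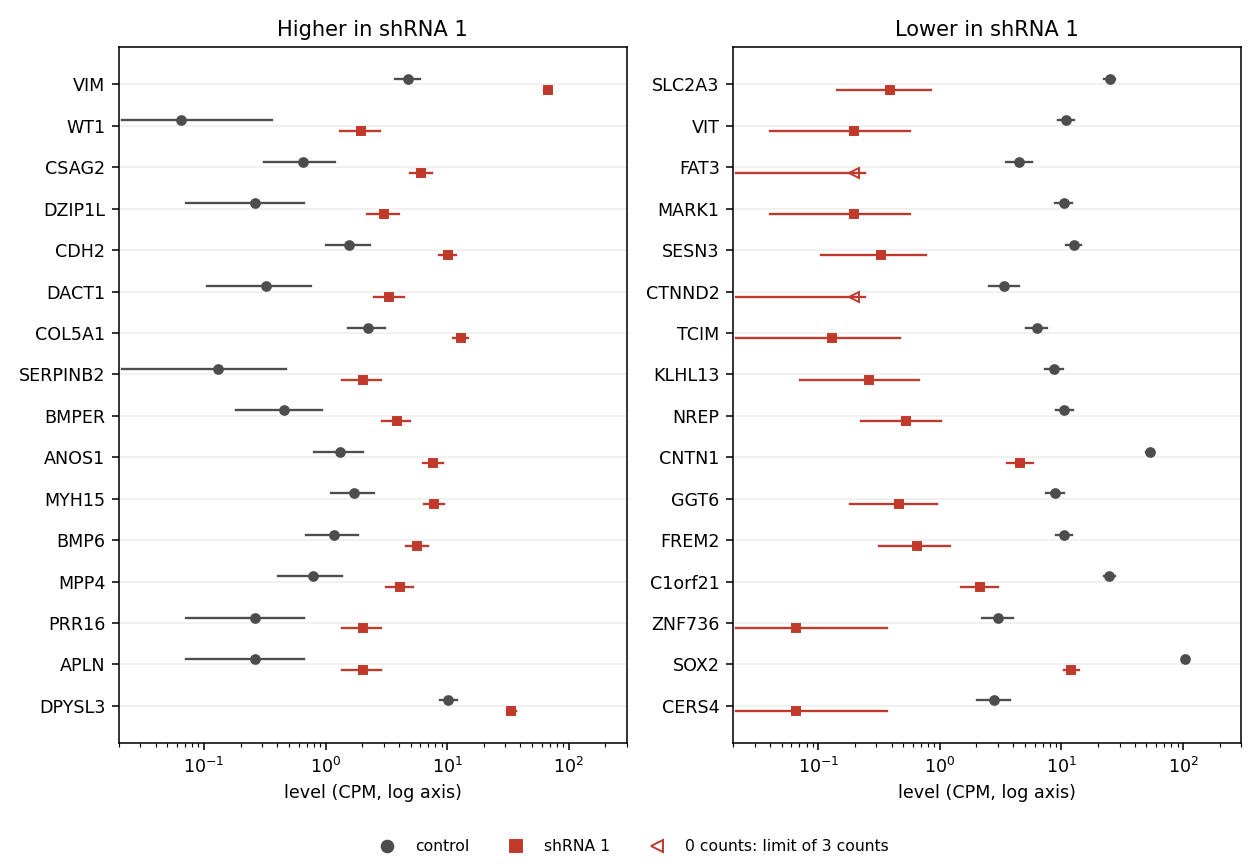
Levels (CPM, log axis) of the 16 higher and 16 lower protein-coding genes with the interval bound farthest from 1, in the control (grey circles) and the library labelled shRNA 1 (red squares); lines are exact 95% Poisson intervals, some cut off at the left edge, and open triangles mark the limit of 3 counts for FAT3 and CTNND2. The intervals of the 2 libraries do not overlap for any of these genes, which follows from choosing them by this bound. On the lower side SOX2 has the highest level in the control, 104.4 CPM.

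Ribosome assembly genes were higher together, by small amounts. Of 45 genes for RNA polymerase I and nucleolar assembly factors, all well counted, 42 lay above the control and 39 had an interval wholly above 1, where all genes gave 28.2%. This list, and those below not marked as added, were chosen with earlier results of these data known. The shares over all genes are thus a description beside them, not an independent yardstick. The median log2 ratio was 0.52, against 0.00 over all well-counted genes. Past 2-fold were 3 members, where all genes gave 2.00%. LYAR (chr4:4267701-4290169), a nucleolar zinc finger protein, stood at 25.3 and 61.6 CPM, a ratio of 2.44 (2.16 to 2.75). URB2 had 287 and 624 counts, a ratio of 2.17 (1.89 to 2.51). RRS1, which helps to bring 5S RNA into the large subunit, had 546 and 1117 counts, a ratio of 2.05 (1.85 to 2.27). NOP2, a methyltransferase of the large subunit's RNA, stood at 51.0 and 92.6 CPM. The abundant nucleolar proteins nucleolin (NCL) and nucleophosmin (NPM1) stood at 770 and 1102 CPM and at 1363 and 1777 CPM. The exceptions were POLR1D, a subunit shared by RNA polymerases I and III, at a log2 ratio of -0.42, UBTF at -0.05 and NOB1 at -0.03. MYC itself had 131.7 and 142.5 CPM, a ratio of 1.08 (1.02 to 1.15).

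Most genes for snoRNA particles were above the control as well. Of 13 box C/D core and assembly genes, 11 lay above the control, with a median log2 ratio of 0.32. Of these 13, 8 had an interval wholly above 1, where all genes gave 28.2%. All 4 proteins of the sister H/ACA particle lay above the control, 3 with intervals wholly above 1. None of these 17 passed 2-fold. NOP56 (chr20:2652145-2658393) and NOP58, the scaffold proteins of the particle, had 1996 and 3720 counts and 972 and 1701 counts. Their ratios were 1.86 (1.77 to 1.97) and 1.75 (1.62 to 1.90). FBL, the methyltransferase fibrillarin, had a log2 ratio of 0.32, and SNU13, which binds the boxes first, 0.12. The assembly factor ZNHIT6 had a ratio of 1.78 (1.61 to 1.98). DKC1, the pseudouridine synthase of the H/ACA particle, had one of 1.63 (1.53 to 1.73). The lowest members were PIH1D1 and NUFIP1, at log2 ratios of -0.08 and -0.07. Of 17 non-coding RNAs that host snoRNAs, 15 lay above the control, with a median of 0.22. SNHG12 stood at 16.3 and 33.7 CPM, a ratio of 2.07 (1.78 to 2.42), and was the one host past 2-fold. SNHG15, SNHG1 and SNHG19 followed with ratios of 1.78, 1.53 and 1.46.

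Because the assembly genes lay above the control together, their promoters were searched for the E-box letters CACGTG, the motif that MYC and related factors bind. The letters read the same on both strands and were searched in 300 bases around each gene's start in the RefSeq table (GRCh38.p14), 250 before and 50 after. They were present in 14 of the 39 assembly genes with an entry (35.9%), in 9.98% of 10345 well-counted genes and in 7.43% of all 27305 promoters. The share was 10.2% for genes past 2-fold on the higher side and 5.67% on the lower side. Ribosomal protein promoters held them in 5.88%, those of box C/D and H/ACA genes in 15.4% (2 of 13), and those of immediate early factors, most of which lay below the control, in 4 of 16. A match is a description of letters, not a bound site. Shown are the 4 members with the highest log2 ratios whose match lies in the stretch printed, as 120 bases from 100 before the start to 20 after, with the match in capitals.
UTP20, plus strand, chr12:101280005-101280124: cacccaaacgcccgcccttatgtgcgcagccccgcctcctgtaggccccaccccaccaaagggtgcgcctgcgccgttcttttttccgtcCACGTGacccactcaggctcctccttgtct
RRP9, minus strand, chr3:51941885-51942004: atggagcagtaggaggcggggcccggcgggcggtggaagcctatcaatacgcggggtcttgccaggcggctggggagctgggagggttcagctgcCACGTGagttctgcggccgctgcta
WDR43, plus strand, chr2:28894567-28894686: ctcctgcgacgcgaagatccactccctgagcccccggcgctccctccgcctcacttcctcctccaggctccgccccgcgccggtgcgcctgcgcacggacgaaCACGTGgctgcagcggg
PNO1, plus strand, chr2:68157788-68157907: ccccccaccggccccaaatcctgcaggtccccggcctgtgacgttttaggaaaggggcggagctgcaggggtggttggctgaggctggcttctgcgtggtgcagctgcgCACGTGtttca
The log2 ratios of these genes were 0.84, 0.73, 0.65 and 0.64. NOP2, at 0.86, held the letters further downstream than the stretch shown, and LYAR and NOP56 had none in the window. A second motif, TGANTCA with N any base, was searched in the same windows on both strands. It was present in 4.69% of well-counted genes and in 1 of the 39 assembly genes. The share was 4.30% for genes past 2-fold on the higher side and 7.73% on the lower side.

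Ribosomal protein mRNAs lay on the other side of the control from the assembly factors. Of the 85 genes for cytosolic ribosomal proteins that were well counted, 70 lay below the control and 63 had an interval wholly below 1, where all genes gave 28.4%. Their median log2 ratio was -0.17 and none passed 2-fold. RPL3 had 22653 and 16136 counts, a ratio of 0.712 (0.698 to 0.727). Those above the control included the paralog RPL22L1, with a ratio of 1.41 (1.23 to 1.61), and RPL26, at 1.45 (1.24 to 1.70). Ribosomal protein genes have many pseudogenes that can take part of their reads, so single members are uncertain. The elongation factor genes EEF1A1, EEF1A2 and EEF2 had ratios of 0.703, 0.754 and 0.783, whereas EEF1B2 and EEF1D had 1.03 and 1.09. This list of 9, added after its values were seen, had 6 above the control, with EEF1E1 past 2-fold higher at 49 and 101 counts. Initiation factors, a family added after its values were seen, were mostly above the control, 29 of 39 genes with a median log2 ratio of 0.18. EIF5B, which joins the subunits, had 1593 and 2794 counts, a ratio of 1.75 (1.65 to 1.87), and EIF5 one of 1.68 (1.599 to 1.766). EIF4B, an activator of the cap-binding helicase, stood at 838.8 and 568.3 CPM. EIF4A1 was past 2-fold higher, with 59 and 132 counts, and EIF4E3 past 2-fold lower, with 162 and 58. EIF4A1 was low at 3.85 and 8.62 CPM, beside 642.3 and 657.4 CPM for EIF4A2. Overlap with genes on the same strand, which can remove reads from a gene, was not examined, so the EIF4A1 ratio is uncertain. The tRNA synthetases, added likewise, had 12 of 20 above the control and a median of 0.09.

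**Figure D3:**
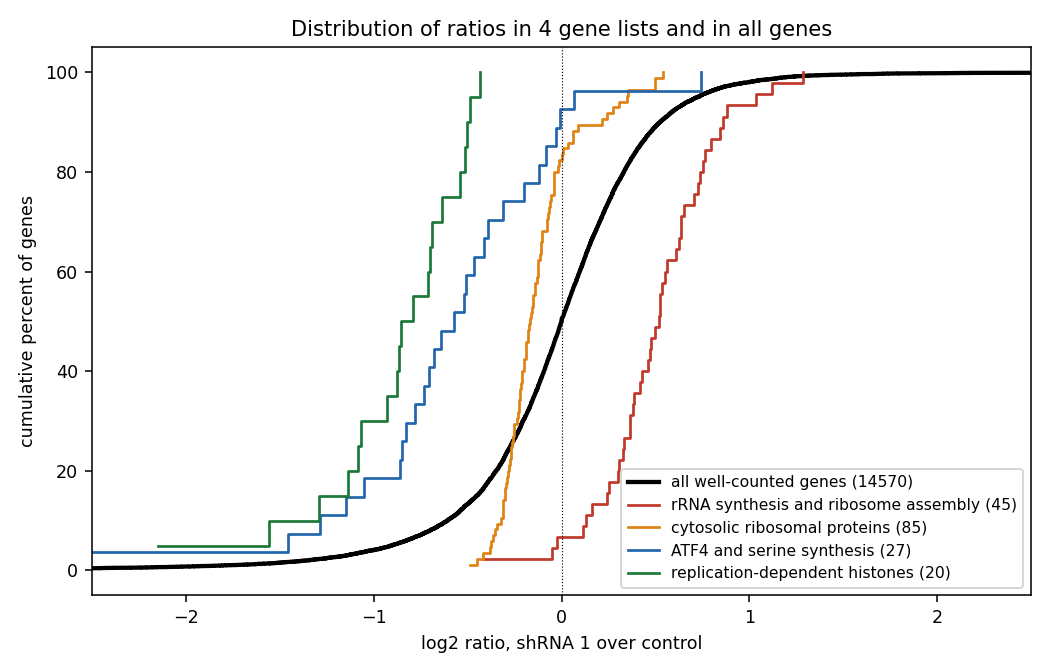
Cumulative percent of genes (y axis) by log2 ratio of the library labelled shRNA 1 to the control (x axis), for all 14570 well-counted genes (black) and for 4 gene lists; the x axis ends at 2.5 on either side. The curve of the 45 ribosome assembly genes lies to the right of all genes, with its median at 0.52, and those of the 85 ribosomal proteins (-0.17), the 27 ATF4 and serine genes (-0.57) and the 20 histone genes (-0.82) lie to the left.

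Among the largest gains in CPM, 4 of 12 genes encode chaperones, namely HSP90AA1, HSPA8, CCT6A and HSPD1. The 12 protein-coding genes with the largest positive difference included ACTB, HSP90AA1, HSPA8, PEG10, CCT6A, HNRNPA2B1, ALDH1A3, HSPD1, NPM1, ACTG1 and NCL. HSPA8, the constitutive cytosolic HSP70, had 14622 and 27302 counts, or 955.1 and 1783 CPM, a ratio of 1.87 (1.83 to 1.91). HSP90AA1, the inducible cytosolic HSP90, stood at 1227 and 2072 CPM, a ratio of 1.69 (1.66 to 1.72). All 8 subunits of the CCT chaperonin, which folds actin and tubulin, were above the control with intervals wholly above 1, from CCT4 at a ratio of 1.06 (1.02 to 1.11) to CCT8 at 1.49 (1.43 to 1.56). Of 36 heat shock proteins and their helpers, 26 lay above the control, with a median log2 ratio of 0.16. HSPH1, HSPA1A and the HSP90 partner CHORDC1 had ratios of 1.75, 1.78 and 1.97. The small heat shock proteins HSPB1 and HSPB8 lay below, at 0.823 and 0.643. Chaperones of the endoplasmic reticulum were not shifted the same way, with 7 of 18 above the control and a median of -0.12. Over all genes, 28.2% had an interval wholly above 1. These folding lists were added after their values were seen.

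The largest negative differences in CPM were those of EEF1A1, MT-CO1, MT-CO3, MT-ND4, GAPDH, EEF2, FTH1, KRT19, BEST1, COL17A1, SDC4 and RPLP0. EEF1A1 stood at 9856 CPM in the control and 6926 CPM in the library labelled shRNA 1, a ratio of 0.703 (0.697 to 0.708). KRT19, a keratin of simple epithelia, stood at 1934 and 1300 CPM. COL17A1, the transmembrane collagen of hemidesmosomes, stood at 1377 and 832.5 CPM, and SDC4, a heparan sulfate proteoglycan, at 1209 and 708.9 CPM. FTH1 and BEST1 overlap, with 62.4% of FTH1's exonic bases facing another gene, so their reads cannot be assigned with certainty. All 13 mitochondrially encoded mRNAs lay below the control, with a median log2 ratio of -0.17, MT-ND3 lowest at -0.41. Of 41 nuclear genes of the respiratory chain, 29 lay below, with a median of -0.06.

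The amino acid stress response was lower almost throughout. ATF4 is a transcription factor made when amino acids are short or the endoplasmic reticulum is stressed, and it drives the synthesis of serine and the import of amino acids. Of 27 well-counted genes of this list, 25 lay below the control, and the median log2 ratio was -0.57. Intervals lay wholly below 1 for 21 (28.4% over all genes). Past 2-fold lower were 5, where all genes gave 4.06%. PHGDH (chr1:119659798-119744215), the first enzyme of serine synthesis, stood at 197.4 and 81.1 CPM, a ratio of 0.411 (0.384 to 0.439). NUPR1, a small stress-induced nuclear protein, had 44 and 4 counts. ADM2, DDIT4 and CHAC1 had ratios of 0.364, 0.451 and 0.482. DDIT4 is overlapped on 41.2% of its exonic bases. ASNS, which makes asparagine, had 2184 and 1202 counts, and PSAT1, the next enzyme of serine synthesis, 2884 and 1937. ATF4 itself had 4197 and 3032 counts. The leucine transporter SLC7A5 was level, with 12936 and 12837, and ATF5, a related factor, stood above, with 415 and 694.

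The well-counted members of a list of FOXO-responsive genes all lay below the control. FOXO factors are held out of the nucleus by AKT. This list was put together after the values were seen, so its counts describe the chosen members only. The shares over all genes are no fair yardstick for it, and FOXO activity was not tested. All 23 well-counted members lay below the control, 20 with intervals wholly below 1 (28.4% over all genes) and 12 past 2-fold (4.06% over all genes), with a median log2 ratio of -1.01. TRIB2, a pseudokinase, had 403 and 65 counts, a ratio of 0.161 (0.122 to 0.210). PIK3IP1, an inhibitor of PI3K, had 155 and 44, and TXNIP, which restrains glucose uptake, 2816 and 1367. The cyclin CCNG2, the repressor BCL6, the autophagy protein GABARAPL1 and the insulin receptor gene INSR had ratios of 0.426, 0.467, 0.495 and 0.494. The factor genes FOXO4, FOXO1 and FOXO3, also counted in the list, had ratios of 0.422, 0.539 and 0.827. TRIB1 had 382 and 369 counts, closest to the control. In the library labelled shRNA 2 the median log2 ratio of the same list to the control was 0.10.

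The components of PI3K to mTOR signalling lay near the control, with 18 of 32 genes above it and a median log2 ratio of 0.08. MTOR had 1901 and 2312 counts, a ratio of 1.22 (1.14 to 1.29), and AKT1 1686 and 1857, a ratio of 1.10 (1.03 to 1.18). EIF4E, the cap-binding protein, had 583 and 836 counts, a ratio of 1.43 (1.289 to 1.597), and its inhibitor EIF4EBP1 1053 and 1030. The 3 members past 2-fold were all lower, namely SESN3 and DDIT4, which restrain mTOR complex 1, and CASTOR2, of the arginine-sensing CASTOR family. PPP1CA, a catalytic subunit of protein phosphatase 1, had 4643 and 3986 counts, a ratio of 0.859 (0.823 to 0.896), with 26.9% of its exonic bases overlapped. Of 24 genes of that phosphatase, 17 lay below the control. The glycogen-targeting subunits PPP1R3B and PPP1R3C were past 2-fold lower, with ratios of 0.403 and 0.476. Over all well-counted genes, 4.06% were past 2-fold lower.

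Squamous identity genes were lower. Of 14 basal squamous genes, 11 lay below the control and 4 were past 2-fold lower, where all genes gave 4.06%, with a median log2 ratio of -0.73. Beside SOX2 and KRT17 these were NGFR, with 403 and 71 counts, and KRT16, with 500 and 213. TP63, the master regulator of stratified epithelium, stood at 157.1 and 80.0 CPM, a ratio of 0.509 (0.475 to 0.546). Keratins 16 and 17 share sequence with each other and with pseudogenes, which limits how reads are told apart. Among 14 differentiation genes, 10 lay below, with KLK5, TGM1 and KRT13 past 2-fold lower, while SPRR1B had 379 and 737 counts. A list of further keratins, KRT7, KRT8, KRT18, KRT19, KRT23, KRT80 and KRT86, was below the control in 6 of 7 cases. The abundant KRT8 and KRT18 were near level, with 67061 and 65922 counts and 25533 and 26279 counts. KRT23 had the lowest ratio, at 0.0800 (0.0336 to 0.164).

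Epithelial adhesion genes and their regulators were below the control in 27 of 35 cases, with a median log2 ratio of -0.19. Without 9 regulators and other genes that are not part of junctions or adhesion complexes, 20 of 26 lay below, with a median of -0.14. CLDN1, a tight junction claudin, stood at 332.1 and 128.1 CPM, a ratio of 0.386 (0.366 to 0.406). GJA1, the gap junction protein connexin 43, had 638 and 118 counts, and the desmosomal cadherin DSC3 1049 and 413. Mesenchymal genes were divided: of 12 that were well counted, 8 lay above the control, with a median log2 ratio of 0.32. Intervals lay wholly above 1 for 6 and wholly below 1 for 3. Past 2-fold higher were 3 (VIM, CDH2 and ZEB1) and past 2-fold lower 2 (TNC and FN1), where all genes gave 2.00% and 4.06%. ZEB1, a repressor of epithelial genes, had 18 and 54 counts, and the interval of its ratio was 1.73 to 5.44. TNC and FN1, the matrix proteins tenascin-C and fibronectin, had 1025 and 383 counts and 965 and 456 counts. These members were named by the size of their ratios. Matrix genes were not all lower, since the collagen gene COL5A1 had a ratio of 5.85.

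Collagen chains were below the control in 13 of 17 cases, but 4 were past 2-fold higher, where all genes gave 2.00%. Beside COL5A1, these were COL13A1, COL27A1 and COL6A2, with 92 and 210, 57 and 124, and 20 and 40 counts, and COL9A3 and COL4A5 were past 2-fold lower, at 0.200 and 0.474. LAMA3, a laminin chain of epithelial basement membranes, stood at 429.9 and 584.5 CPM. Integrins and laminins as a list had 8 of 19 above the control. Among 21 matrix proteases and inhibitors, ADAMTS15, ADAM19, ADAMTS6 and ADAM12 were past 2-fold higher, with ratios of 2.59, 2.28, 2.21 and 2.08. MMP10 lay below, with 60 and 11 counts. The intracellular serpins SERPINB2 and SERPINB8 were past 2-fold higher among 6. Over all well-counted genes 2.00% were past 2-fold higher and 4.06% lower. Below a mean of 5 CPM these shares were 7.32% and 12.5%.

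Guidance and adhesion genes leaned to the lower side. Of 39 semaphorins, ephrins and their receptors, 29 lay below the control, with a median log2 ratio of -0.39. Over all well-counted genes, 7265 of 14570 lay below it. SEMA3B and SEMA3F, secreted semaphorins, had 96 and 13 counts and 433 and 118 counts. Their receptor subunit NRP1 stood above, with 311 and 719 counts, a ratio of 2.31 (2.02 to 2.65), and so did EPHB6, with 43 and 107. Protocadherins and other cadherins had 12 of 17 below, FAT3 lowest, and FAT2 with 681 and 191 counts. The related FAT4 had 98 and 231, a ratio of 2.36 (1.85 to 3.02). CEACAM6, an adhesion glycoprotein, had 235 and 576 counts, while 9 of the 12 surface glycoproteins of its list lay below the control.

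**Figure D4:**
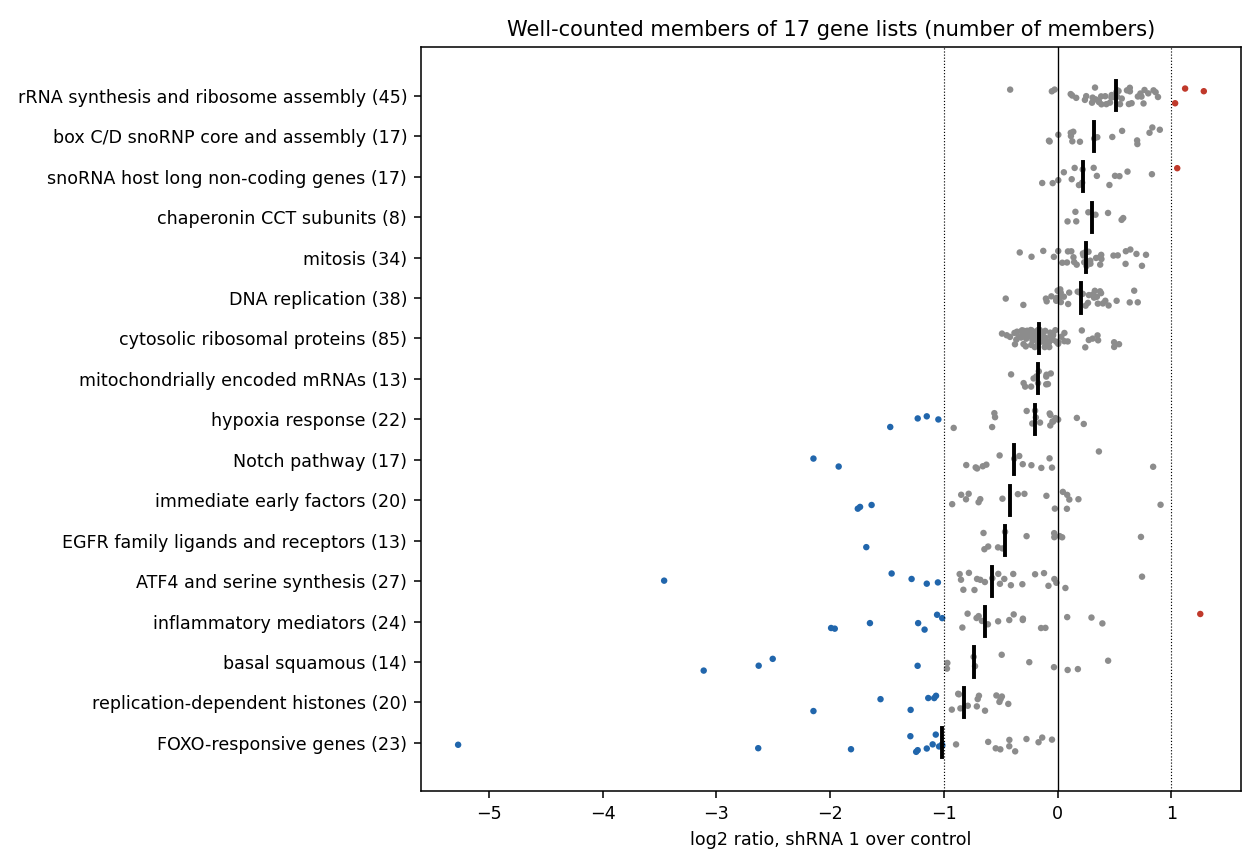
Each point is a well-counted member of 1 of 17 gene lists (number of members in brackets), placed by its log2 ratio of the library labelled shRNA 1 to the control on the x axis; black bars are medians, dotted lines mark 2-fold, red and blue points lie past it, and vertical scatter within a list is random. Medians run from 0.52 for ribosome assembly to -1.01 for FOXO-responsive genes, and the histone, FOXO and chaperonin lists were added after values were seen.

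The ligand genes of the EGFR family differed in direction. AREG (chr4:74445134-74455009), the EGFR ligand amphiregulin, had 5953 and 1855 counts, a ratio of 0.312 (0.296 to 0.328). EREG, a second ligand, had 2341 and 1490, and the receptor ERBB3 1275 and 835, and 10 of 13 genes of the family lay below the control. The ligand NRG4 stood above it, at a ratio of 1.66 (1.201 to 2.315). MAP kinase feedback genes and ETS factors had 16 of 21 below, with a median log2 ratio of -0.28. ETV5 was the 1 member past 2-fold lower, where all genes gave 4.06%, at 1375 and 581 counts. DUSP4, a phosphatase of MAP kinases, had 4614 and 2639. DUSP6 was level, with 1200 and 1270. Immediate early factors had 14 of 20 below. FOS, EGR1 and NR4A1 had ratios of 0.296, 0.300 and 0.322, whereas FOSL1, the FRA-1 subunit of AP-1, stood at 140 and 262.2 CPM, a ratio of 1.87 (1.78 to 1.97). Fibroblast growth factor genes went both ways. The receptors FGFR2 and FGFR3 had ratios of 0.101 and 0.372, and FGFR1 and the ligand FGF1 had 2.21 and 2.22.

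The list of insulin-like growth factor genes, which also holds the non-coding RNA H19, had 12 of 17 below the control. The 4 past 2-fold lower, where all genes gave 4.06%, were IGFBP2, with 697 and 176 counts, IGFBP5, INSR and H19. H19 is described with the imprinted genes below. IGF2 stood above, with 208 and 326. Of 9 Hedgehog genes, a list added after values were seen, SMO and the co-receptor BOC were past 2-fold lower and GLI2 past 2-fold higher. BOC had 88 and 23 counts. The WNT list had 19 of 30 below, with WNT3A at 50 and 4 counts and the receptor FZD1 at 453 and 100, while the ligand WNT5B had 39 and 110. Notch genes had 15 of 17 below, with a median log2 ratio of -0.38. NOTCH3 had 1352 and 356 counts, a ratio of 0.263 (0.234 to 0.296), and the target HEY1 403 and 91, whereas NOTCH2 was near level at 2154 and 2081.

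TGF-beta and BMP genes were divided, 14 of 27 above the control, with a median log2 ratio of 0.27. All 4 ID genes, targets of BMP signalling, lay below it, with log2 ratios of -0.58, -0.67, -0.82 and -1.90 for ID1, ID2, ID3 and ID4. BMP7 had 455 and 134 counts, while BMP4 had 455 and 820 and the antagonist follistatin (FST) 441 and 810. Genes driven by YAP had 12 of 26 above. CCN2 was the 1 member past 2-fold lower, where all genes gave 4.06%, with a ratio of 0.456 (0.424 to 0.491). F3, tissue factor, stood at 368.8 and 690.6 CPM. Both lists thus held members on either side.

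Inflammatory genes were mostly lower. Of 24 well-counted mediators, 20 lay below the control and 7 were past 2-fold lower, where all genes gave 4.06%, with a median log2 ratio of -0.64. The chemokine CCL5 stood at 217.3 and 69.2 CPM, a ratio of 0.319 (0.297 to 0.342). PTGS2, the inducible cyclooxygenase, had 171 and 43 counts, IL6 35 and 9, and CXCL8 482 and 206. CSF2 was past 2-fold higher, with 13 and 31 counts. NFKBIA, the inhibitor that NF-kB induces, had 2311 and 1335. Interferon-stimulated genes had 28 of 41 below, with a median of -0.14. GBP2, GBP1, RSAD2 and OASL were past 2-fold lower, OASL with 11202 and 5009 counts, whereas IFIT1 was near level at 5130 and 4981 and XAF1 had 64 and 151. Opposite-strand exons cover 38.3% of XAF1. Antigen presentation genes had 12 of 15 below, with PSMB9 and TAP1 at ratios of 0.547 and 0.677. Of 11 Toll-like receptor genes, TLR4 and TLR1 were past 2-fold higher (2.00% over all genes), TLR1 with only 13 and 30 counts.

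Proliferation genes stood slightly above the control. DNA replication genes had 30 of 38 above, with a median log2 ratio of 0.21 and none past 2-fold. E2F1, the transcription factor of S phase entry, had 526 and 857 counts, a ratio of 1.63 (1.46 to 1.82), MCM10 535 and 830, and MCM4 was level at 6408 and 6448. Mitosis genes had 30 of 34 above, with a median of 0.25. CENPE, a kinetochore motor, had a ratio of 1.71 (1.53 to 1.91) and ANLN, a scaffold of cell division, 1.67 (1.61 to 1.73), while KIF2C had 4112 and 3264 counts. Replication-dependent histone genes lay on the other side. All 20 that were well counted were below the control, 17 of them on chromosome 6. Their intervals were wholly below 1 for 18 (28.4% over all genes), 6 were past 2-fold (4.06% over all genes), and the median was -0.82. H2AC6 had 1166 and 476 counts, a ratio of 0.408 (0.366 to 0.455), and H2BC12 1682 and 930. Transcripts of these genes mostly lack a poly(A) tail, so their counts also depend on how the library selected RNA, which the labels do not state. This list was added after values were seen.

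Targets of p53 had 16 of 26 below the control, with BTG2, TP53INP1 and PERP past 2-fold lower, PERP with 11543 and 5657 counts. Regulators of apoptosis had 13 of 17 below, with the killer proteins HRK, BMF and BBC3 at ratios of 0.323, 0.408 and 0.533. Hypoxia genes had 19 of 22 below and 4 past 2-fold lower, where all genes gave 4.06%, namely NDRG1, MXI1, DDIT4 and ANGPTL4. NDRG1 stood at 240 and 86.6 CPM, while VEGFA had 1273 and 1054 counts. Glycolytic genes had a median log2 ratio of -0.05. Beside SLC2A3, the hexokinase HK1 lay below the control at a ratio of 0.600 (0.558 to 0.645), and SLC2A1, the common glucose transporter, had 3080 and 2995 counts. Sterol and lipid genes had a median of -0.04, with FASN, the fatty acid synthase, at a ratio of 1.37. Antioxidant genes had 17 of 26 below, and UGT1A1 and UGT1A6 were past 2-fold lower. Aldehyde dehydrogenases and cytochromes P450 had 12 of 19 below. ALDH1A3, which makes retinoic acid, stood at 419.1 and 926 CPM, a ratio of 2.21 (2.15 to 2.28), with 27.5% of its exonic bases overlapped. Its antisense neighbour ALDH1A3-AS1 had a ratio of 2.24, and the reads of the 2 may not be separate. HOX genes had no member past 2-fold and a median of -0.13. Of 10 well-counted S100 genes, S100P was past 2-fold lower.

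Among genes of other classes, H19 (ENSG00000130600.15, chr11:1995163-2001470), a maternally expressed non-coding RNA, had 5068 and 377 counts. It stood at 331 and 24.6 CPM, a ratio of 0.0744 (0.0668 to 0.0826). The 2 short RNAs annotated inside it on the other strand had 846 and 64 counts and 44 and 2 counts, and lie wholly over its exons. PEG10 (chr7:94656325-94669695), expressed from the paternal allele, stood at 570.3 and 1279 CPM, a ratio of 2.24 (2.19 to 2.30). Of 12 imprinted genes, H19 and PEG10 were the 2 past 2-fold, where all genes gave 6.06% in either direction. MANCR, a long non-coding RNA on chromosome 10, had 72 and 309 counts, a ratio of 4.29 (3.31 to 5.63).

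Neighbouring genes past 2-fold in the same direction occurred in 11 runs of 3, counted in genome order over the well-counted genes. The 2 higher runs were VIM with the antisense genes VIM-AS1 and ENSG00000234961, and SERPINB2, SERPINB8 and CDH19 on chromosome 18. The 9 lower runs included H19 with its 2 short RNAs, MACROH2A2, AIFM2 and TYSND1 on chromosome 10, UGT1A6, ENSG00000224814 and UGT1A1 on chromosome 2, and DANT2, SLC6A14 and KLHL13 on the X chromosome. Several of these runs hold genes on opposite strands of the same locus, and whether the library kit kept the strand was not tested. In the control, FTH1 and BEST1, on opposite strands, had 55278 and 46310 counts. ALDH1A3 and ALDH1A3-AS1 had 6417 and 3951, while ZNFX1 and ZFAS1 had 2927 and 186. Reads of such pairs may not be separate, so their ratios should not be read as independent changes. Among genes with 100 or more counts, 1 higher run and 0 lower runs were left. Chromosome medians lay between -0.12 on chromosome 22 and 0.21 on chromosome 21, mitochondrial genes apart. On chromosome 21, 5 of 146 genes were past 2-fold higher and 1 lower, and on chromosome 22 it was 1 higher and 17 lower of 366. No chromosome was shifted as a whole by more than these amounts.

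Values in the library labelled shRNA 2 are given side by side for some of the named genes. Both shRNA libraries are set against the same control. In CPM, each of the 25 lower genes chosen by bound was also below the control in the library labelled shRNA 2. The 25 higher genes were above it, except APLN, DPYSL3, NPTX1 and BMP6. Many of these counts are small, and the shared control helped to choose the genes, so this is not independent agreement. VIM stood at 4.77, 66.9 and 17.4 CPM, in the order control, shRNA 1, shRNA 2. APLN had 4, 31 and 1 counts, where 4 against 1 is too few to settle a direction. DPYSL3 had 157, 515 and 116 counts, so the library labelled shRNA 2 lay under the control. SLC2A3 had 381, 6 and 32 counts and CNTN1 819, 70 and 226. GGT6 had 135, 7 and 119 and GBP2 357, 44 and 262. NOP56 stood at 130.4, 243 and 76.0 CPM and LYAR at 25.3, 61.6 and 18.6 CPM. PHGDH stood at 197.4, 81.1 and 210.2 CPM, and HSPA8 at 955.1, 1783 and 666.2 CPM. For NOP56, LYAR, HSPA8, PHGDH and DPYSL3 the control lay between the 2 shRNA libraries. The difference between the shRNA lines was not tested, since each is 1 library.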

How the data were processed

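The deposited counts per gene are raw. Per the file headers, the authors ran featureCounts 1.6.4 with an hg38 annotation and strand option 1, and the gene lengths are from that deposited table too. The submitters' processing notes instead name TopHat2, HTSeq and hg19. The sources used here give no library kit. Start and end matched GENCODE 29 for all 52179 identifiers of equal version, and coordinates are therefore called hg38. Of 60554 genes, 56558 matched a symbol.

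Counts were scaled to CPM with TMM factors of the 2 libraries (0.989 for the control and 1.01 for shRNA 1, edgeR 4.0.16 in R 4.3.3). The third library was put on the control's scale by TMM over all 3. Ratios are of scaled counts with exact conditional (Clopper-Pearson) intervals at 95%, checked on simulated data. A count of 0 is set to 3 counts, and a 0 against 3 or fewer gives no ratio. Intervals cover counting error only, and reads without molecular identifiers are not independent molecules. List medians use well-counted members.

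Named are the locus genes, 25 higher and 25 lower protein-coding genes by the interval bound nearest to 1, 12 each way by difference in CPM, 6 each way of other classes, genes at 0 in 1 library, up to 5 members of each of 48 lists by log2 ratio, and PPP1CA, AKT1, MTOR, EIF4EBP1 and EIF4E. Other list members were named after their values were seen. The members and lists were chosen with earlier results of these data known, and 9 lists were added after that. Alternatives covered scaling (total counts, upper quartile, DESeq2 1.42.0 size factors, no mitochondrial genes), the count minimum, the fold, the interval bound and opposite-strand overlap. Promoters come from RefSeq, where 10345 of 14424 well-counted symbols had an entry. Protein sequences and shRNA sequences were not used here.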

Additional observations from a re-analysis of the deposited data

Results flagged for a closer look

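For 10 gene lists the median log2 ratio to the control had opposite signs in the libraries labelled shRNA 1 and shRNA 2 and a size of 0.2 or more in each. Both share the control, each is 1 library, and the difference was not tested. Over the well-counted genes of the shRNA 1 comparison, ribosome assembly genes had 0.52 with the label shRNA 1 and -0.51 with the label shRNA 2. Box C/D and H/ACA particle genes had 0.32 and -0.38, and snoRNA host RNAs 0.22 and -0.36. CCT chaperonin subunits had 0.30 and -0.48, and DNA replication genes 0.21 and -0.76. ATF4 and serine genes had -0.57 and 0.32, and histone genes -0.82 and 0.54. Squamous differentiation genes had -0.37 and 0.26, surface mucins and CEACAM genes -0.42 and 0.27, and antigen presentation genes -0.21 and 0.51.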

How the results depend on the processing

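The counts of genes past 2-fold, 292 higher and 591 lower, kept within 1.5 times under the other scalings and moved with the choice of genes or fold. They were 786 and 1098 with a minimum of 10 counts, 117 and 298 with 100, and 2029 and 1903 for all genes with a count, leaving out those at 0 in 1 library and at 3 or fewer in the other, which give no ratio. A fold of 1.5 gave 1180 and 1540, a fold of 4 gave 28 and 112, and the interval bound past 2-fold gave 54 and 217. Without genes that overlap on the opposite strand they were 175 and 374, out of 7873 genes. Runs of neighbours with 100 or more counts were 1 higher and 0 lower. Of 322 medians of the first 48 lists under an alternative, 10 moved by 0.1 or more, all with another count minimum, and 1 turned sign, that of the Toll-like receptors, which lies at -0.02. All of these describe 2 libraries, so how far cultures of 1 line vary was not measured. No paired analysis was possible because each group holds 1 library. At 3 counts, the limit is 0.196 CPM, so low genes give wide bounds.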
